A study of Homo sapiens with 4 samples.

Results

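The genes described here are 10 genes of the complement system: the recognition subunits C1QA and C1QB, the central component C3, the alternative pathway proteins CFB and CFP, the receptors C3AR1 and C5AR1, and the regulators SERPING1, CD55 and CD46. They were taken by name, with earlier results of these data known. Of the 54675 probe sets of the array (groups of short probes against stretches of a transcript), 15 name 1 of them alone. All 10 were found, among 19775 genes with a probe set of their own. RNA came from THP-1 cells, an established human line of monocytic leukaemia cells, and was hybridised to 4 Affymetrix arrays. Each condition had 1 array and therefore no replicates. The first array held resting cells with no treatment. The second held cells given Pam3CSK4, a lipopeptide made by synthesis that engages the TLR1 and TLR2 receptors, for a time that the labels do not state. The other arrays held cells that had received Pam3CSK4 and were kept together with platelet-like particles (PLPs) for 12 h or for 24 h. The titles of these arrays carry 13 and 25, and the descriptions, with 12 h and 24 h, were followed. The labels do not name the cells from which the particles were made, and RNA carried by the particles would be read together with that of the THP-1 cells. A single leukaemia line stands for monocytes here.

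Complement is a cascade of blood proteins that tags microbes and dying cells. C1q, a complex whose chains include the products of C1QA and C1QB, starts the classical pathway when it binds antibody on a surface, while the alternative pathway turns over spontaneously and amplifies the others. All routes meet at C3, whose cleavage leaves an opsonin on the target and releases a small peptide that signals to leukocytes. Most circulating complement is made by the liver, and monocytes and macrophages are known as a local source.

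Values are RMA values on the log2 scale, and differences are differences of log2 values, so that a difference of 1 is 2-fold. With 1 array a condition there was no test, no standard error and no p-value, and a gene was counted as higher or lower from a 2-fold difference. The probe set with the highest mean over the arrays stood for its gene, which was counted only where this probe set was at or above 6.19, the median of all values, on 1 array or more. Of 10 genes 7 met this, and C1QB and C5AR1 did so only through arrays of treated cells. The resting array stood apart in the 3' to 5' control ratio of GAPDH, which RNA integrity and labelling both affect: the 3' control probe set of GAPDH exceeded the 5' one by 2.16 log2 there and between 0.59 and 0.92 on the others, while the gap of ACTB set it less apart, at 3.41 against 2.90 to 3.17. Of 10 monocyte markers 8 had a probe set of their own, and all 8 were above 6.19 on every array. Of the 9 platelet and megakaryocyte markers, 4 or 5 were above it on each array.

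Activation with Pam3CSK4 went with more C3, CFP and C3AR1 transcript, while the genes for the membrane regulators CD55 and CD46 differed little. Of the 10 genes 3 were at least 2-fold higher with Pam3CSK4 than in resting cells and 0 were lower. The same held for 4.14% (higher) and 1.71% (lower) of all 13410 genes tested. The median difference over the 10 genes was 0.48, against -0.04 over all 19775 genes. Because the list was chosen with earlier results of these data known, no excess over all genes can be drawn from these values. The wider GAPDH gap of the resting array stood beside every difference in this comparison, and its part in them was not tested. Monocyte markers moved as well: their summed level on the linear scale was 19804 on the resting array and 33132 with Pam3CSK4. That sum depended most on markers of high level such as LYZ and FCER1G. CSF3R read lower, 9.52 against 10.12 in resting cells, and the other markers read higher. Of the 8, 2 were at least 2-fold higher, ITGAM and CD14, and the other probe set of ITGAM differed by -0.19. The part of the monocyte markers in the complement values was not tested. In bulk RNA, more cells of a state and more RNA per cell cannot be told apart.

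C3 had the largest difference of the 10. Its probe set read 10.22 on the resting array, 12.65 with Pam3CSK4, 12.38 after 12 h with particles and 12.62 after 24 h. The treated arrays thus lay together, within 0.27 of each other, and well above the resting array. With Pam3CSK4 it was 2.44 above resting cells, or 5.41-fold, and 0.984% of the genes tested had a difference as high. On the resting array the probe set already stood at the 92.0th percentile of all probe sets, so the resting value was far from the low end of the scale.

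CFP encodes properdin, a plasma protein made by leukocytes that stabilises the alternative pathway convertase. It read 7.65 in resting cells, 9.43 with Pam3CSK4, 9.76 at 12 h and 9.32 at 24 h. Its highest value was at 12 h, and the other treated arrays stayed far closer to it than to the resting array. The difference for Pam3CSK4 was 1.78, or 3.44-fold, and 1.86% of the genes tested were as high. CFP was read by 1 probe set, of the _s_at type that can bind related transcripts.

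CFB encodes factor B, which joins cleaved C3 to form that convertase, and it stayed at low level. Its first probe set read 5.47 in resting cells, 5.79 with Pam3CSK4, 5.74 at 12 h and 5.85 at 24 h. Its other probe set read 5.61, 5.67, 5.46 and 5.52 in the same order. Both stayed under 6.19 on every array, where signal over background was not established, so no direction was drawn.

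The sequence before the start site is shown for the genes of these alternative pathway partners, CFP and CFB. Promoter windows, from 250 bases before the start to 50 after it, were in the RefSeq table of GRCh38.p14 for 8 of the 10 genes, 11 windows in all. C3, the gene with the largest difference, and SERPING1 had no entry and were not searched. Each was searched on both strands for TTCNNNGAA (the GAS pattern of STAT factors), the ISRE pattern of interferon response (GAAA, any 2 bases, GAAA) and a loose NF-kB pattern (GGG, any 5 bases, CC). The 250 bases before the start are printed 5′ to 3′ along the gene, and capitals mark letters that match any of the 3 patterns. CFP was printed by the rule for genes at least 2-fold higher with a match. CFB was added after its matches had been seen, so the pair cannot show a link between matches and level.
CFP, chrX:47630306-47630555, minus strand: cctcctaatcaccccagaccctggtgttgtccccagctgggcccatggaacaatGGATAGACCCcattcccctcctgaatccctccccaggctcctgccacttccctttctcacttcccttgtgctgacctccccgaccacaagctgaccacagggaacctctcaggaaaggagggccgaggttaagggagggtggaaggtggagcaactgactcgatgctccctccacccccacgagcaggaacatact
CFB, chr6:31945845-31946094, plus strand: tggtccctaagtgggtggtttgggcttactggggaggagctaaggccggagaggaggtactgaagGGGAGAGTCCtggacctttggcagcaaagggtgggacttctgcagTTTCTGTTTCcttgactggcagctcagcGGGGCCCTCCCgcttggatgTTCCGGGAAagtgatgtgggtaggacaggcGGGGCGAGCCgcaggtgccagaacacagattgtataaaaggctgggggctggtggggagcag
The CFP window held 1 match, to the NF-kB pattern, starting 196 bases before the start site, and a further CFP window held 0. The CFB window held 1 GAS match, 1 ISRE match and 4 NF-kB matches, of which 2 overlap by all but 1 base. Of all 35116 windows in the table, 7.66% held the GAS pattern, 3.57% the ISRE pattern and 58.7% the loose NF-kB pattern. Counted by gene and not by window, 2 of the 8 genes held a GAS match (C1QA and CFB), 1 an ISRE match (CFB) and 6 an NF-kB match. C1QA, CD46 and CFP had more than 1 window, so the counts of genes cannot be set directly against the shares of windows. The C3AR1 window held 0 matches to any of the 3 patterns. These matches describe letters in a window and were not tested for binding or effect.

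**Figure D1:**
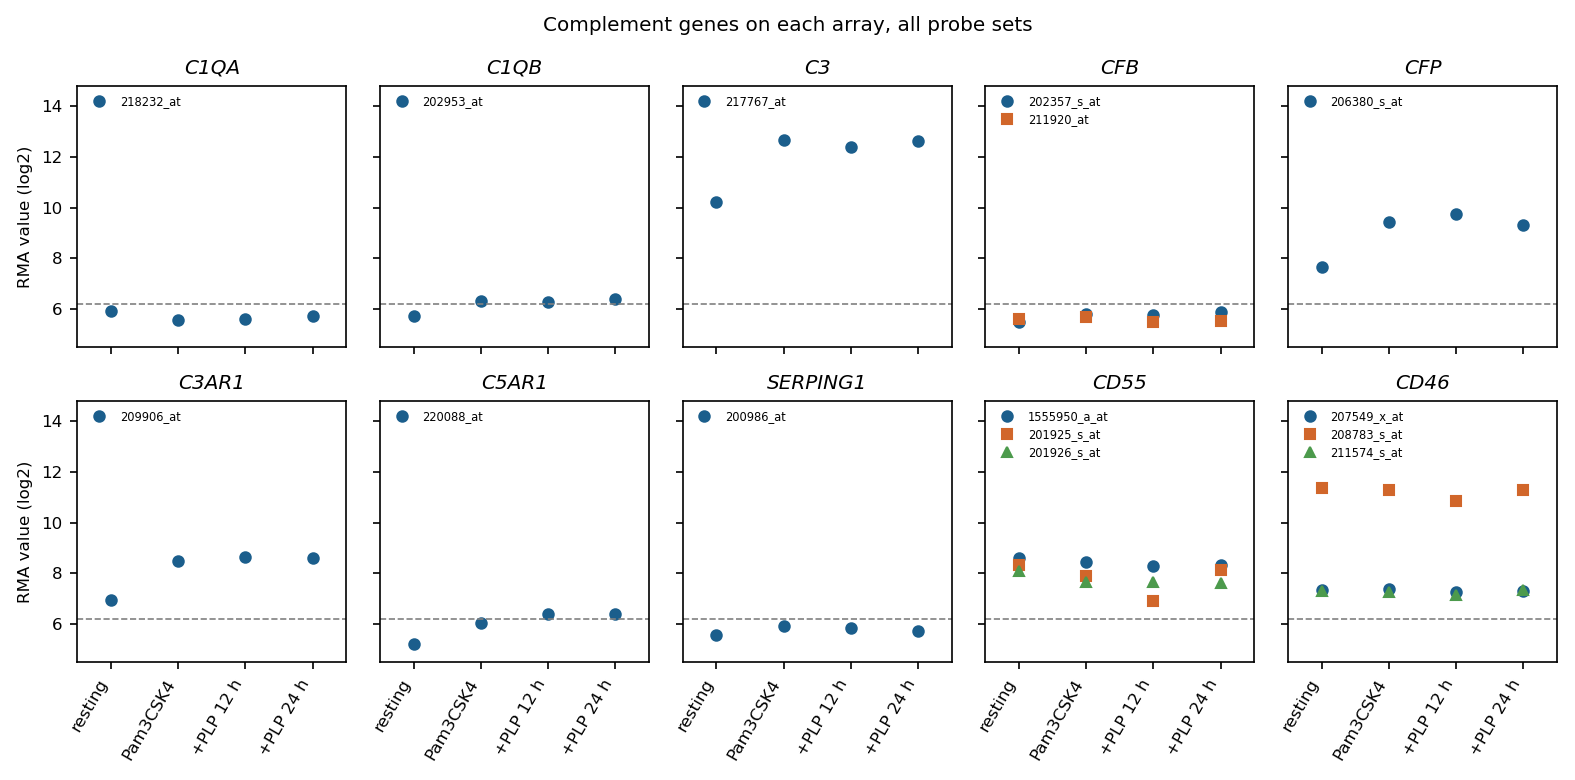
RMA value (log2, vertical axis) of each of the 15 probe sets on each of the 4 arrays (horizontal axis), with 1 panel per gene and 1 point per array. The dashed line marks 6.19, the median of all values. C3, CFP and C3AR1 are higher on the 3 treated arrays than on the resting array, C1QA, CFB and SERPING1 stay under the line, and 1 probe set of CD55 dips at 12 h.

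Of the receptors for the released peptides, that for the C3 peptide was more than 2-fold higher with Pam3CSK4 and that for the C5 peptide was not. C3AR1 read 6.93 in resting cells, 8.48 with Pam3CSK4, 8.64 at 12 h and 8.60 at 24 h. Every treated array was above the resting one, by 1.55 with Pam3CSK4 alone, or 2.94-fold, and the treated arrays differed among themselves by at most 0.16. C5AR1, the receptor for the chemoattractant peptide of C5, read 5.21 in resting cells, 6.05 with Pam3CSK4, 6.38 at 12 h and 6.39 at 24 h. Its difference of 0.83 with Pam3CSK4 lay under 2-fold and between values under 6.19, so its size depends on background.

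The C1q genes stayed at low level. C1QA read 5.92 in resting cells, 5.56 with Pam3CSK4, 5.60 at 12 h and 5.73 at 24 h, under 6.19 on each array. C1QB read 5.71 in resting cells and 6.31, 6.26 and 6.39 on the treated arrays in the same order. The treated C1QB values lay just above the median of all values, with a difference of 0.60 for Pam3CSK4, a level at which neither presence nor absence of the transcript was established. C1QC, the gene for the remaining C1q chain, lay between 5.52 and 5.65 on all arrays.

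The regulators showed no 2-fold difference between the Pam3CSK4 and resting arrays. SERPING1, which encodes the C1 inhibitor, read 5.56 in resting cells, 5.92 with Pam3CSK4, 5.85 at 12 h and 5.70 at 24 h, all under 6.19. CD55, which encodes the decay-accelerating factor that dismantles convertases on host membranes, differed by -0.14, -0.44 and -0.42 on its 3 probe sets. CD46, which encodes the membrane cofactor for C3b cleavage, differed by -0.10, 0.03 and -0.06 on its own 3. All 6 of these probe sets were above 6.19 on every array, and CD55 read slightly lower with Pam3CSK4 on each of its own.

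**Figure D2:**
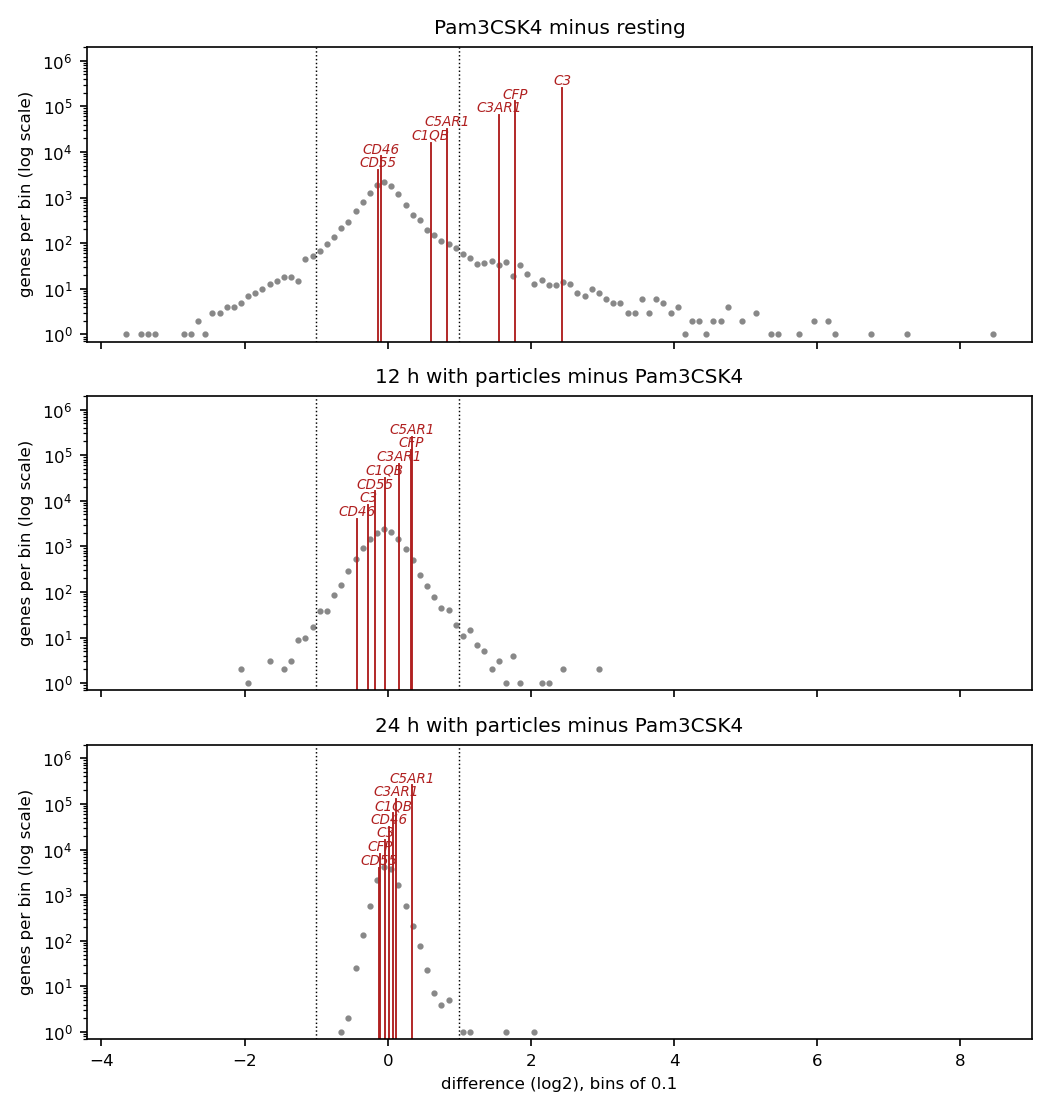
Number of genes (log scale, vertical axis) in bins of 0.1 log2 difference (horizontal axis) for 13410 genes, as grey points, in 3 comparisons; red lines mark the 7 complement genes above the level filter and dotted lines mark 2-fold. With Pam3CSK4 C3, CFP and C3AR1 lie past the upper dotted line, and with particles every red line lies between the dotted lines.

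After 12 h with particles the complement genes stood near their level with Pam3CSK4 alone, as did most genes. Of the 13410 genes tested 13308 differed by less than 2-fold. At the 2-fold threshold 0 of the 10 genes were higher and 0 lower, where 0.410% and 0.350% of all genes tested were. The median difference over the 10 was -0.05, against -0.01 over all 19775 genes. The Pam3CSK4 array serves as the control for both co-culture times, and whether it matches either in time is not known, so particles and time cannot be told apart. CFP differed by 0.33 and C5AR1 by 0.33, and 7.08% and 6.90% of the genes tested were as high. C5AR1 passed the filter only through the co-culture arrays, and its Pam3CSK4 value of 6.05 was under 6.19, so its size and rank depend on background. C3 differed by -0.27 and C3AR1 by 0.16. On its representative probe set CD46 differed by -0.43, and 7.29% of genes were as low. The GAPDH control gap was 0.92 at 12 h against 0.59 with Pam3CSK4, and its part in these differences was not tested.

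The probe sets of CD55 disagreed at 12 h. Probe set 201925_s_at read 8.33 in resting cells, 7.89 with Pam3CSK4, 6.92 at 12 h and 8.14 at 24 h. Its 12 h value was the lowest by far, 0.97 below Pam3CSK4, or 1.96-fold lower, just short of the threshold, and the 24 h value was 1.23 above that of 12 h, or 2.34-fold. Probe set 1555950_a_at read 8.58, 8.44, 8.27 and 8.32 in the same order. Probe set 201926_s_at read 8.07, 7.65, 7.64 and 7.62. On both of these the treated arrays lay within 0.17 of each other, with no dip at 12 h of the size seen on the first. The range over the CD55 probe sets was 0.97 for the 12 h comparison, and of 2656 genes with at least 3 probe sets above the filter 2.67% had a range as wide, with a median range of 0.33. CD55 was looked at in this way after its values were seen. The sources used here do not give which parts of the transcript the probe sets read.

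CD46 read lower at 12 h by differing amounts on its probe sets. Probe set 208783_s_at read 11.37 in resting cells, 11.27 with Pam3CSK4, 10.84 at 12 h and 11.28 at 24 h. Probe set 207549_x_at read 7.33, 7.36, 7.24 and 7.31, and probe set 211574_s_at read 7.31, 7.26, 7.15 and 7.32. The 12 h array held the lowest value on each of the 3, and 58.7% of all genes tested lay below Pam3CSK4 there. After cyclic loess, another normalisation, 49.9% did, and CD46 differed by -0.32 on its representative probe set. As deposited, the differences of CD46 from Pam3CSK4 ran from -0.43 to -0.11, all under 2-fold. Of the 2656 genes, 52.1% had a range over probe sets as wide.

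**Figure D3:**
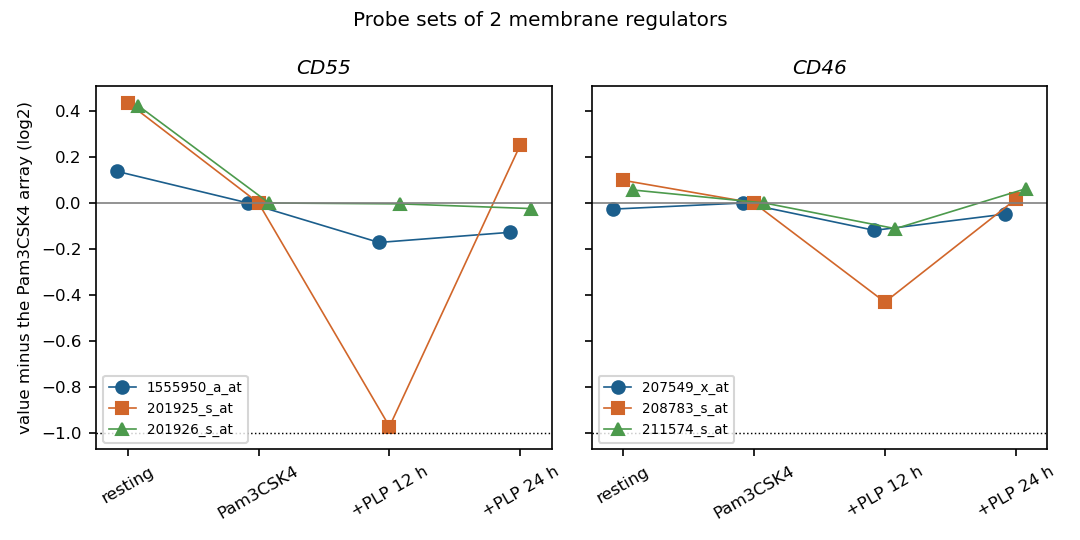
Value of each probe set minus its value on the Pam3CSK4 array (log2, vertical axis) on the 4 arrays (horizontal axis) for CD55 and CD46; points are single arrays, lines join points of a probe set, and the dotted line marks 2-fold lower. On probe set 201925_s_at of CD55 the 12 h point lies at -0.97, whereas the other CD55 probe sets lie at -0.17 and -0.0039 there.

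After 24 h with particles the complement genes again stood near their level with Pam3CSK4, as did 13406 of the 13410 genes tested, at less than 2-fold. None of the 10 was at least 2-fold higher or lower (0 and 0), where 0.0298% and 0.00% of all genes tested were. C5AR1 had the largest difference, 0.34, with the same limit. C3 differed by -0.03, CFP by -0.11, C3AR1 by 0.12, CD55 by -0.13 and CD46 by 0.02 on their representative probe sets. Between the co-culture times, CFP was 0.44 lower at 24 h than at 12 h and CD46 was 0.45 higher. Those differences were under 2-fold, and at that threshold 0 of the 10 genes were higher and 0 lower, where 0.343% and 0.224% of genes tested were.

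Other genes of the system were read from a list of 40, of which 36 had a probe set of their own and 19 passed the level filter. With Pam3CSK4 5 of the 19 were at least 2-fold higher and 1 was lower, where 4.14% and 1.71% of all genes tested were. The lower gene, C1S, passed the filter only through the resting array, where it was high. This list too was made with earlier results of these data known, so no excess over all genes can be drawn from it. The median over the 36 was 0.00, beside -0.04 over all genes. Of the 9 receptor genes 3 were higher, all integrin chains of the receptors that bind fragments of C3 on opsonised targets. ITGAM went from 8.04 to 10.23, ITGAX from 7.92 to 9.32 and ITGB2, their shared partner chain, from 12.87 to 13.99. ITGAM differed by 2.20 on this probe set and by -0.19 on its other, while the 3 probe sets of ITGB2 differed by 0.44 to 1.71. ITGAM is also on the list of monocyte markers. Of 8 further regulators with a probe set 2 were higher: CD59, the membrane inhibitor of the lytic pore, went from 8.35 to 10.03, and THBD, thrombomodulin, a clotting regulator that also dampens complement, went from 9.40 to 11.19. The probe sets of CD59 above the filter differed by 0.98 to 2.13 and those of THBD by 1.79 to 2.25.

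Of the recognition proteins and early proteases 7 passed the filter. With Pam3CSK4 0 of these were at least 2-fold higher, where 4.14% of all genes tested were, so the count says little about the class. C1S, a protease of the C1 complex, was at least 2-fold lower at -1.01, from 6.52 in resting cells to 5.51. The latter was under 6.19, so that the size depends on background. Its entry into the count came only from the resting array, so the direction of its call was favoured by the filter. CFD, factor D, the protease that activates factor B, differed by -0.25. Among the 7 terminal components 3 passed the filter and none reached 2-fold, too few genes to set against the share of all genes. C5 went from 8.53 to 7.76, a difference of -0.76, and was the terminal component with the largest difference.

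At 12 h and at 24 h 0 of the 19 genes of this list past the filter were at least 2-fold different from Pam3CSK4. Of all genes tested 0.410% were higher and 0.350% lower at 12 h, and 0.0298% and 0.00% at 24 h. With shares so small, counts of 0 say little about these genes. At 12 h the 9 receptor and regulator genes of this list that passed the filter lay below Pam3CSK4, from -0.66 for ITGAM to -0.06 for CD93, a count made after their values were seen, where 58.7% of all genes tested lay below it. With cyclic loess 8 of the 9 did, where 49.9% of genes did. The receptor genes described above lay on the other side, C3AR1 at 0.16 and C5AR1 at 0.33. The monocyte markers were mixed at 12 h. Their sum on the linear scale was lower, 30413 against 33132, and depended most on markers of high level such as LYZ. CD14 (7.74 against 8.93), LYZ (13.29 against 13.70), ITGAM, SPI1 and CSF3R read lower. CSF1R, FCER1G (13.49 against 13.43) and TYROBP (12.68 against 12.51) read higher. The part of the monocyte markers in the complement values was not tested. C1QBP, a mitochondrial protein that binds C1q, differed by -0.56 on its representative probe set and by -0.53 on its other. For ITGAM, CD59 and CD93 the probe sets split in sign at 12 h, from -0.66 to 0.10, from -0.27 to 0.47 and from -0.06 to 0.73.

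**Figure D4:**
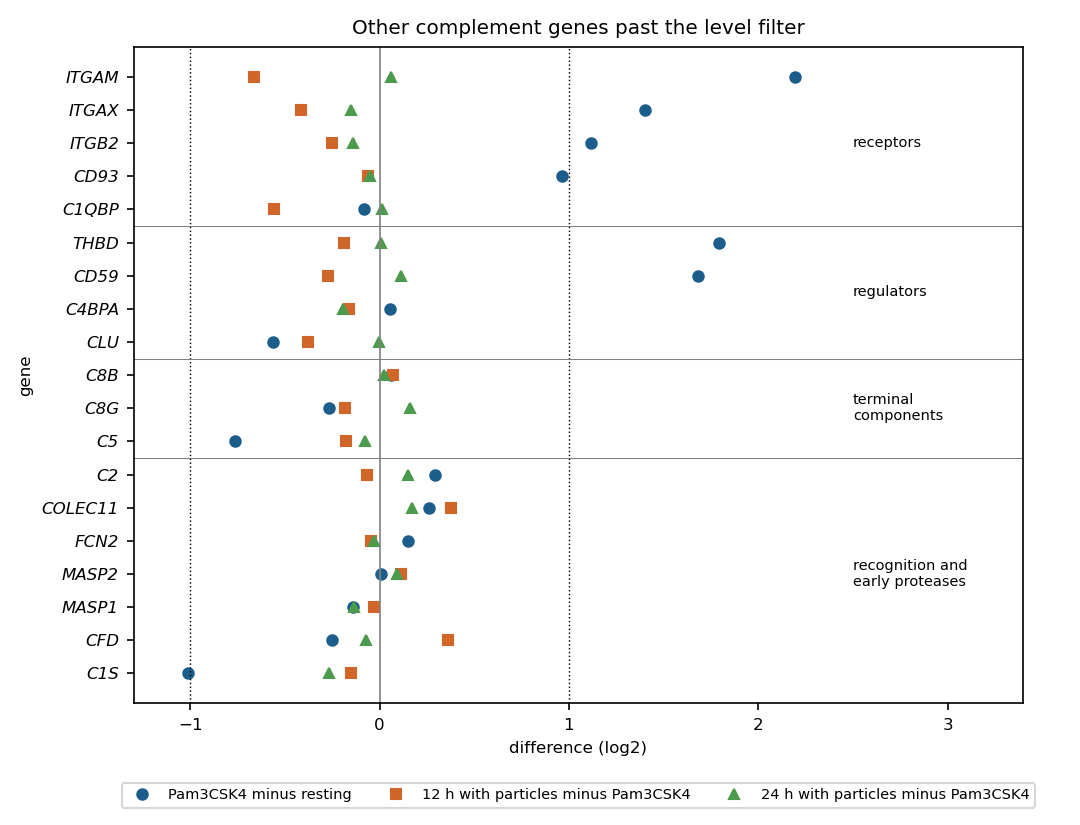
Difference (log2, horizontal axis) of the 19 other complement genes above the level filter (vertical axis, grouped by role) in 3 comparisons, each point being the difference of single arrays; dotted lines mark 2-fold. ITGAM, ITGAX, ITGB2, CD59 and THBD lie past the upper line with Pam3CSK4, C1S lies just past the lower line, and no gene lies past either line with particles.

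Genes with the most similar pattern were taken for the members with the widest range over the arrays, C3 and CFP, as those with the smallest Euclidean distance over 3 differences (Pam3CSK4 minus resting, and each co-culture time minus Pam3CSK4) among 13403 genes. For C3 these were ANXA2P2, a pseudogene of annexin A2 whose probes can bind its parent transcript, at a distance of 0.16, GCNT2 at 0.18 and PLEKHO1 at 0.24. ANXA2P2 differed by 2.41 with Pam3CSK4. For CFP they were COL4A2, a collagen chain of basement membranes, at 0.09, SHROOM3 at 0.10 and CYLD, a deubiquitinase of NF-kB signalling, at 0.15. COL4A2 went from 7.37 to 9.23 with Pam3CSK4. The likeness rests on 4 arrays and describes them only.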

How the data were processed

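The deposited table holds log2 values of 54675 probe sets on 4 arrays, made by the authors with RMA in affy 1.28.1, per the submitters' processing notes. RMA forces the arrays to a common distribution, so a global change in RNA content cannot be seen, and differences at low level are compressed. Sorted columns differed by at most 0.11. No detection calls were used. Names came from a platform annotation in which 41091 probe sets name 1 gene, 1801 several and 11721 none, apart from 62 control probe sets. Arrays were grouped by source label. The number of arrays limits the precision, and no test was possible. The call was a 2-fold difference on the probe set with the highest mean.

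Genes described: all 10 members on all probe sets, other complement genes past 2-fold, and 3 nearest genes of the 2 members with the widest range. Further genes were named after their values were seen. Members and lists were chosen with earlier results of these data known. Marker lists for erythroid cells (2 to 3 of 8 above 6.19 per array), T and B lymphocytes (2 to 3 of 7) and hepatocytes (2 to 3 of 8) were read beside those in the report. The erythroid count hides that HBE1 read 5.45 with Pam3CSK4, 6.30 at 12 h and 7.50 at 24 h, while AHSP fell to 6.09 at 24 h. The source of the HBE1 signal was not tested. Values were also computed without a filter, with one at the 75th percentile, at thresholds of 1.5-fold and 3-fold, on averaged probe sets, without _x_at and _s_at probe sets, and after cyclic loess (limma 3.58.1, R 4.3.3, 3 iterations). The lowest and highest probe set of each member were added after the data were seen. Other steps used Python 3.11.15, numpy 2.4.6, pandas 2.3.3 and matplotlib 3.10.9. Counting was tested on simulated data.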

Additional observations from a re-analysis of the deposited data

How the results depend on the processing

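Of the 10 complement genes 7 have 1 probe set, so averaging or choosing probe sets could not move their values. Over all genes and settings 121 values repeated the reported one, mostly by that construction. Of the values that moved, 70 stayed on the same side of 2-fold and 1 did not: on its highest probe set CD55 was 1.23 higher at 24 h than at 12 h. The count of members higher with Pam3CSK4 was 3 with no filter, with the 75th percentile filter, with averaged probe sets and with cyclic loess. It was 2 at 3-fold, where C3AR1 was lost and 310 of 13410 genes tested were higher. It was also 2 when _x_at and _s_at probe sets were omitted, so that CFP had no value, where 433 of 10438 genes were higher. At 1.5-fold it was 5, where 1017 of 13410 genes were higher. This adds C1QB and C5AR1, which passed the filter only through arrays of treated cells. In the other comparisons the counts of members stayed at 0 under those settings, which did not include the choice of the highest or lowest probe set. CD46 had no value without those probe sets either.

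Counts over all genes moved with the threshold. At 1.5-fold and 3-fold, 1017 and 310 genes were higher and 790 and 67 lower with Pam3CSK4, 255 and 12 higher and 383 and 6 lower at 12 h, and 421 and 5 higher and 185 and 5 lower at 24 h against 12 h. At 24 h against Pam3CSK4 22 were higher and 1 lower at 1.5-fold, 2 were higher at 3-fold, and 1 with the 75th percentile filter. With averaged probe sets 26 genes were lower at 12 h, 1 was higher at 24 h, and 21 were higher at 24 h against 12 h. No paired analysis was possible because each group has 1 array. Without detection calls, signal over background could be judged only by level, which limits C1QA, C1QB, CFB, SERPING1 and C5AR1.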
